A study of Mus musculus with 3 samples.

Results

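Among lymph node (LN) stromal cells sorted for CXCL13 reporter fluorescence, 536 of 2530 barcodes with stromal matrix RNA also carried RNA of Cd79a or Cd79b, the signalling chains of the B cell antigen receptor. A barcode is the tag of 1 droplet, and a unique molecular identifier (UMI) is the count of 1 captured RNA molecule. Barcodes were chosen from all 5486 deposited ones by measured values. They had at least 200 genes, at most 10% of UMIs from mitochondrial genes (4513 passed these limits), at least 1 UMI of Cd79a or Cd79b, and at least 10 UMIs of Col1a2, Col3a1 and Sparc together, called matrix UMIs below. Col1a2 and Col3a1 encode fibrillar collagens and Sparc a collagen-binding matrix protein. None of these 5 genes was tested, since they made the choice.

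The cells came from C57BL/6 mice with a Cxcl13-Cre/tdTomato transgene, given antigen immune complexes (antigen-ICs). They were live cells positive for podoplanin and TdTomato and negative for the endothelial protein CD31 and the leukocyte protein CD45. Both libraries called 2-IC came from mice given a first antigen-IC 7 days and a second 24 h before analysis, and the 1-IC library from mice given 1 antigen-IC 24 h before. LNs of several mice were pooled, which mice went into which library is not clear, and no unimmunized library was analysed here. In the paper, cells sorted by this reporter comprised several kinds of reticular cell and not follicular dendritic cells (FDCs) alone. The 3 libraries are named 2-IC replicate 1, 2-IC replicate 2 and 1-IC replicate 1, and values are given in that order; with 1 library of 1-IC, the immunization schedules were not compared by a test of levels.

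B cells in LN follicles live in a network of CXCL13-producing reticular cells. FDCs hold antigen on complement and Fc receptors in the centre of that network, marginal reticular cells (MRCs) line its outer edge under the capsule, and medullary and T-B border reticular cells (MedRCs and TBRCs) surround it. B cells and FDCs touch closely in the tissue and share some surface receptors, such as complement receptor 2 (Cr2), the low-affinity IgE receptor CD23 (Fcer2a) and the inhibitory IgG receptor FcγRIIB (Fcgr2b), so RNA of these genes alone does not separate one cell type from the other.

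On GRCm38 (GENCODE M21), Cd79a lies at chr7:24897381-24902197 on the + strand and Cd79b at chr11:106311341-106314762 on the - strand. The matrix genes Col1a2, Col3a1 and Sparc lie at chr6:4504814-4541544, chr1:45311538-45349706 and chr11:55394500-55423183. The chemokine gene Cxcl13 lies at chr5:95956951-95961068 and Cr2 at chr1:195136811-195176716.

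The libraries held 20607903, 12788101 and 3766526 UMIs, and the median barcode held 4120.5, 9468 and 4620 UMIs. Barcodes of 2-IC replicate 2 were thus the deepest and those of 1-IC replicate 1 the fewest. Both 2-IC libraries shared 76 barcode sequences. In 64 of these the larger copy was in 2-IC replicate 2, and the smaller copy had a median of 1.90% of the UMIs of the larger. Of the stromal barcodes with Cd79 UMIs, 5 in 2-IC replicate 1 and 22 in 2-IC replicate 2 were shared ones. The libraries 2-IC replicate 1 and 1-IC replicate 1 shared 2 barcodes, with 0 of the chosen ones among them. Of those with 5 or more Cd79 UMIs, 17 of the 41 in 2-IC replicate 2 were shared, with a median of 53762 UMIs against 22740 in the other 24, and 4 of the 175 in 2-IC replicate 1. Results that moved without the shared barcodes are given with and without them.

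Of the barcodes with matrix RNA, 405 of 1759 carried Cd79 UMIs in 2-IC replicate 1, which is 23.0% (exact Clopper-Pearson 95% interval 21.1 to 25.1%, for counting error only). In 2-IC replicate 2 they were 96 of 491 (19.6%, 16.1 to 23.3%). In 1-IC replicate 1 they were 35 of 280 (12.5%, 8.86 to 16.95%). The share was 18.4% ± 5.36 (SD, n = 3 libraries), and the interval of 1-IC lay below that of 2-IC replicate 1 and overlapped that of 2-IC replicate 2. Without shared barcodes the share in 2-IC replicate 2 was 16.8%. After each barcode was thinned to 2000 UMIs, leaving out 34, 3 and 4 shallower barcodes, the shares were 13.7%, 7.38% and 9.42%, so the order between 2-IC replicate 2 and 1-IC turned at equal depth.

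The number of Cd79 UMIs was divided into ranges. Exactly 1 UMI was seen in 237 of the 536 barcodes, 2 to 4 UMIs in 55, and 5 or more in 244, of which 154 had 15 or more. The highest numbers were 64, 66 and 36 UMIs. Both chains were detected in 262 barcodes, Cd79a alone in 173 and Cd79b alone in 101. These ranges were set after the values were seen, and they are described separately below because their other RNA differed.

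**Figure D1:**
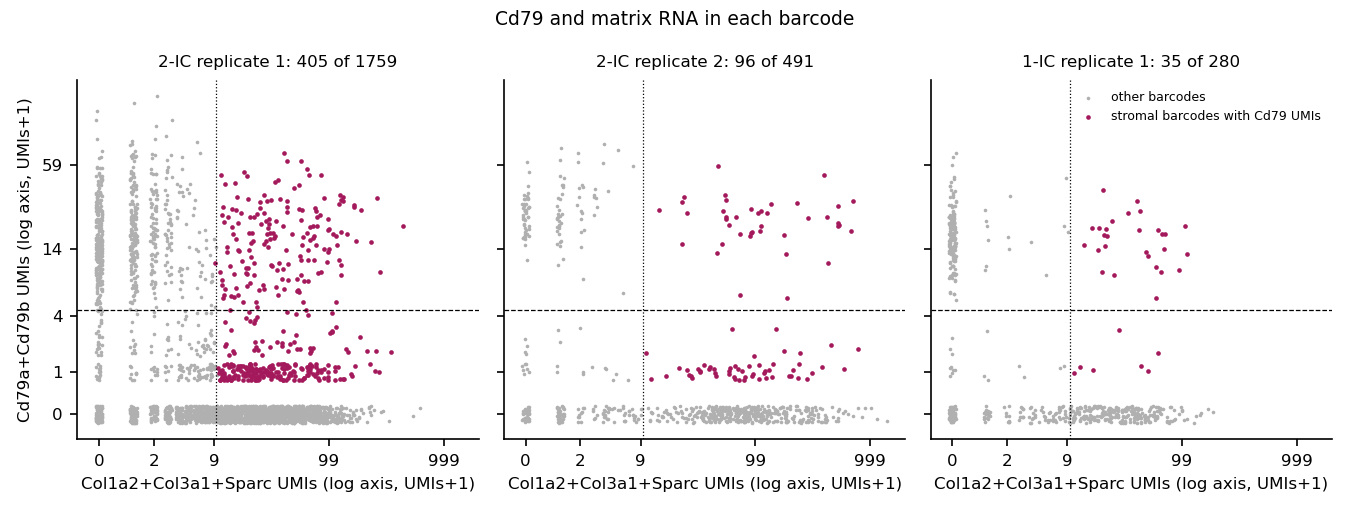
Cd79a plus Cd79b UMIs (vertical, log axis of UMIs + 1) against matrix UMIs (horizontal, log axis of UMIs + 1) in each barcode after quality limits, 1 panel per library, with small random shifts to separate points. Coloured points are the stromal barcodes with Cd79 UMIs (405, 96 and 35). The dotted line marks the matrix minimum of 10 and the dashed line the start of the range of 5 or more Cd79 UMIs.

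Barcodes with exactly 1 Cd79 UMI were 10.52% (9.12 to 12.05%), 9.57% (7.12 to 12.5%) and 1.79% (0.582 to 4.12%) of the matrix-bearing barcodes. T cells lack Cd79, so barcodes with at least 3 UMIs of Cd3d, Cd3e, Cd3g and Trac and under 10 matrix UMIs give the level of stray Cd79 RNA. Among them exactly 1 Cd79 UMI was seen in 5.36% of 112 (1.99 to 11.3%), 10.2% of 49 (3.397 to 22.2%) and 6.25% of 32 (0.766 to 20.8%). Their median depth was 3520.5, 9537 and 4253.5 UMIs, against 6694, 17608 and 7850 UMIs in the matrix-bearing barcodes. In 2-IC replicate 2 and in 1-IC the share with exactly 1 UMI was thus under that in T cell marker barcodes, with overlapping intervals, and is not read as expression there; the source of these UMIs was not tested. In 2-IC replicate 1 it was above it, in deeper barcodes and with overlapping intervals, and the difference was not tested. Barcodes with at least 10 UMIs of the myeloid genes Lyz2, Tyrobp, Fcer1g, Csf1r and Aif1 and under 10 matrix UMIs carried exactly 1 Cd79 UMI in 14.6% of 48, 17.6% of 17 and 11.8% of 17, and any in 37.5%, 29.4% and 35.3%.

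Barcodes with 5 or more Cd79 UMIs made up 9.95% (8.59 to 11.4%), 8.35% (6.06 to 11.2%) and 10.0% (6.75 to 14.1%) of the libraries' matrix-bearing barcodes. Without shared barcodes the share in 2-IC replicate 2 was 5.44% (3.52 to 7.99%), against 9.79% (8.44 to 11.3%) in 2-IC replicate 1, so those intervals did not overlap. The range of exactly 1 UMI held 5 barcodes in 1-IC. Just inside the matrix minimum (10 to 12 matrix UMIs) 39 of the chosen barcodes of 2-IC replicate 1 had a median of 5689 UMIs, 1 Cd79 UMI and a mean of 79.8 Cxcl13 UMIs. Just outside it (7 to 9) 68 Cd79-bearing barcodes had a median of 2966.5 UMIs, 2 Cd79 UMIs and a mean of 43.1 Cxcl13 UMIs. Another 1085 barcodes with Cd79 UMIs lay under the minimum over all libraries.

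To compare the B cell RNA with that of B cells of the same libraries, B cell barcodes were defined as those with 5 or more Cd79 UMIs and at most 2 matrix UMIs, of which there were 491, 95 and 166. A list of 30 B cell genes outside the rule served as the reading (surface and coreceptor, signalling, and transcription factor genes). In stromal barcodes with 5 or more Cd79 UMIs the median number of these genes detected was 19, 23 and 18.5, close to the 17, 23 and 16 of B cell barcodes. With exactly 1 Cd79 UMI it was 3, 4 and 2, and with 0 it was 2, 3 and 2. At least 10 of the 30 genes were seen in 97.1%, 100% and 100% of the barcodes with 5 or more Cd79 UMIs. With exactly 1 it was 1.08%, 2.13% and 0%, and with 0 it was 0.665%, 0.506% and 0%. Because the barcodes were chosen for Cd79, and a B cell makes these genes together with Cd79, their rise is a description of what was chosen.

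The barcodes with 5 or more Cd79 UMIs were also richer in RNA overall. Their median was 12169, 29103 and 12928.5 UMIs, against 6195, 16566 and 7381 in matrix-bearing barcodes with 0 Cd79 UMIs and 3817, 6069 and 3144 in B cell barcodes. Barcodes with exactly 1 Cd79 UMI had medians of 6694, 17948 and 7386, near those with 0. Taking the 3 ranges together, the chosen barcodes held 9104, 22121.5 and 12722 UMIs at the median against 6746.5, 16929 and 8129 in barcodes with 0 Cd79 UMIs matched to them 1 to 1 on matrix UMIs within a library (535 pairs). The log2 ratio was 0.49 ± 0.139 (SD, n = 3 libraries), a 1.40-fold difference that was higher in all 3 libraries. The exact sign-flip permutation test, two-sided, gave p = 0.25, the smallest value that 3 libraries allow.

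**Figure D2:**
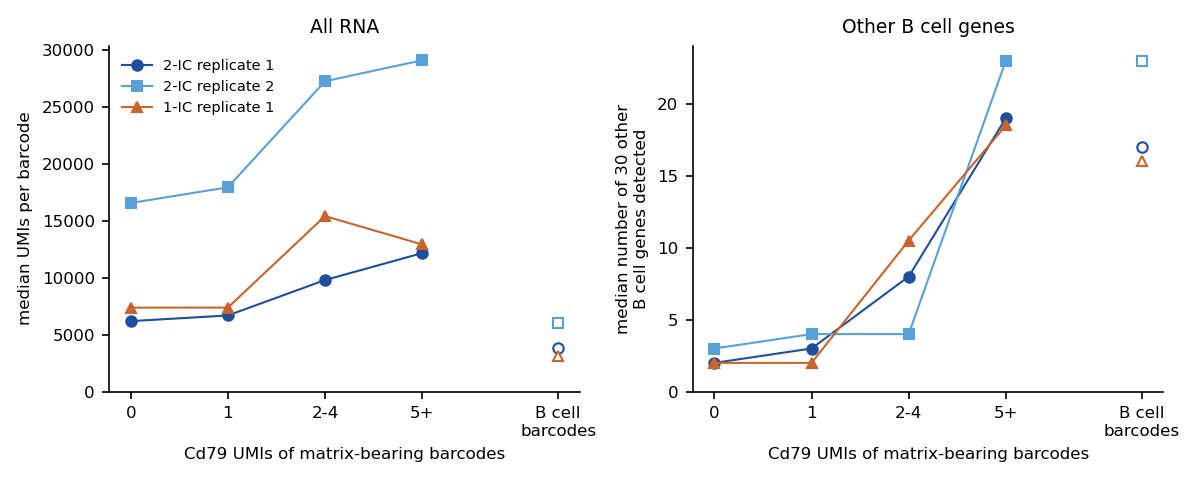
Left, median UMIs per barcode; right, median number of 30 other B cell genes detected; both against the number of Cd79 UMIs of matrix-bearing barcodes, with 1 line per library. Open points are the B cell barcodes. Barcodes with 5 or more Cd79 UMIs lie far above those with 0 or 1 on both axes, and on the right they lie next to the B cell barcodes.

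The extra B cell RNA of a stromal barcode with 5 or more Cd79 UMIs was about that of 1 B cell barcode. Per barcode, the UMIs of the 30 genes above those of the matched barcodes, divided by the UMIs of a B cell barcode of the same library, came to 0.991, 1.01 and 1.01 (1.01 ± 0.0138 SD, n = 3). Without shared barcodes the ratios were 0.972, 0.823 and 1.01 (0.937 ± 0.101). For Ms4a1, which encodes the B cell surface protein CD20, the ratio was 1.07 ± 0.0611. For the tetraspanin Cd37 it was 0.910 ± 0.0850. For Fcer2a it was 0.979 ± 0.126 and for Ighd, the IgD heavy chain of mature B cells, 1.29 ± 0.251. Genes of the class II antigen presentation pathway gave slightly less, with 0.823 ± 0.0590 for Cd74, the invariant chain, and 0.834 ± 0.0944 for H2-Aa, a class II chain. Among the genes named here, with shared barcodes kept, the kappa light chain Igkc varied most, with 0.696, 1.90 and 1.01 B cell barcodes. Without shared barcodes it gave 0.765, 0.894 and 1.01 (SD 0.122), and Ighd (SD 0.363) and the antibody genes Jchain (SD 0.992) and Ighg1 (SD 1.81) varied more. All UMIs together gave 1.04, 1.38 and 1.23 (1.22 ± 0.173), and 0.938, 0.791 and 1.23 without shared barcodes. Cd79a and Cd79b are left out here, since the same minimum of 5 UMIs was used for both kinds of barcode. A B cell makes the 30 genes together with Cd79, so this shared minimum also bears on their ratio. A ratio near 1 thus partly describes what was chosen.

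**Figure D3:**
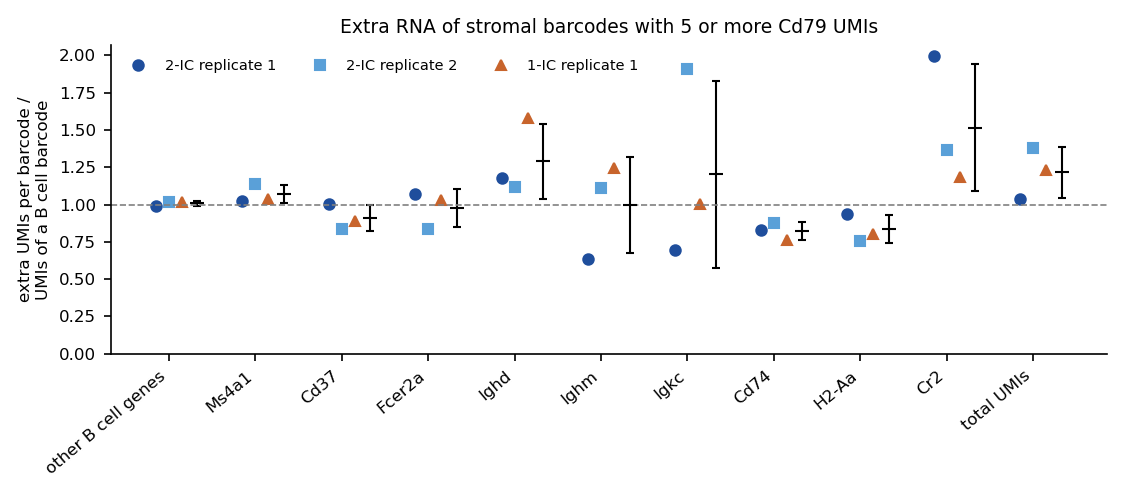
UMIs per stromal barcode with 5 or more Cd79 UMIs beyond those of matched barcodes with 0 Cd79 UMIs, divided by the UMIs per B cell barcode (vertical, ratio). Coloured points are the 3 libraries, and black bars their mean ± SD. The 30 other B cell genes together sit at 1.01 ± 0.0138, Cr2 at 1.51 ± 0.425 and all UMIs at 1.22 ± 0.173.

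A doublet caller, Scrublet, read these barcodes differently in each library. Its median score was 0.140, 0.122 and 0.183 in barcodes with 5 or more Cd79 UMIs, against 0.0637, 0.0656 and 0.0607 with exactly 1, but it called only 0, 2 and 6 of the former as doublets. In all it called 1, 4 and 12 barcodes (0.0319%, 0.529% and 1.92%), so in 2-IC replicate 1 it gave no working call. A droplet that held both a stromal and a B cell and a stromal cell that carried a B cell or its RNA cannot be told apart from these counts. The share of the nuclear RNA Malat1 was lower in barcodes with 5 or more Cd79 UMIs (2.96%, 4.51% and 6.35%) than in those with 0 (3.72%, 5.81% and 8.11%). In B cell barcodes it was lower still (1.98%, 3.44% and 4.87%), and the difference was not tested.

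Gene levels were compared on UMI counts summed per library over the chosen and over the matched barcodes (6 sums) with edgeR's quasi-likelihood test, library as a block, trimmed-mean (TMM) scaling and Benjamini-Hochberg adjustment over all genes tested, at 0.05. Of 11016 genes tested, 794 passed (7.21%), 561 higher in the chosen barcodes (5.09%) and 233 lower (2.12%). Scaled instead to matrix UMIs, 3788 of them were higher (34.4%) and 5 lower (0.0454%). Of 9051 genes tested for barcodes with 5 or more Cd79 UMIs, each matched anew, 1009 passed (11.1%), 671 higher (7.41%) and 338 lower (3.73%). Of 7904 tested for barcodes with exactly 1 Cd79 UMI, 69 passed (0.873%), 43 higher (0.544%) and 26 lower (0.329%). Fold changes below are log2 values ± SE against matched barcodes and levels are CPM, a gene's UMIs divided by all UMIs of the sum and multiplied by 1e6. Chosen and matched barcodes of a library share a cell suspension, and nothing ties a library to single animals, so the spread behind these p-values is that between 3 libraries, which may be technical. With 2 residual degrees of freedom a gene, edgeR drew each gene's spread toward a trend over all genes, worth 10.7 prior degrees of freedom over all chosen barcodes and 12.6 for 5 or more Cd79 UMIs. For exactly 1 Cd79 UMI the prior was without limit, so those p-values used the common trend alone and not the gene's own spread between libraries.

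In barcodes with 5 or more Cd79 UMIs the B cell lists were higher almost whole, beside 7.41% of all genes tested. Without shared barcodes 8.46% of 6214 genes were higher and 3.94% lower, and of the lists all 13 surface and coreceptor genes tested, 7 signalling genes, 8 of 9 transcription factors, 9 class II and 6 naive B cell genes were higher. Of 14 surface and coreceptor genes 13 passed and were higher, with Cd72, an inhibitory receptor, as the exception (0.57 ± 0.184, edgeR adjusted p = 0.0619). The median over the 14 was 5.09, with genes at 0 in all matched barcodes set at their lower bound, against -0.01 over all genes tested. Ms4a1 stood at 434, 235 and 233 CPM, against 2.26 CPM in the matched barcodes of 2-IC replicate 1 and 0 in the other 2 libraries. Its 3 levels lay far above the matched ones, with a change of 8.12 ± 0.319 (adjusted p = 3.97e-10). Cd22, an inhibitory coreceptor, had 245 UMIs against 0, at least 49.6-fold higher by a floor of 3 counts over the matched group. Tnfrsf13c, the receptor for the B cell survival factor BAFF, had 307 against 0 (at least 62.1-fold), Blk, a B cell Src-family kinase, 121 against 0 (at least 24.5-fold), and Cxcr5, the receptor for CXCL13, 71 against 0 (at least 14.4-fold). Cd22, Tnfrsf13c, Blk and Cxcr5 passed the filter on low counts through the chosen barcodes alone. Their calls, and their part in the counts and medians of the lists, thus only describe what was chosen. Ptprc encodes CD45, against which the cells had been sorted; it stood at 222, 217 and 164 CPM against 5.27, 30.6 and 0.

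All 7 B cell signalling genes were higher (median 4.61 with bounds), and so were 8 of 9 transcription factors (median 4.66), among them Pax5, the B lineage factor, at 85.2, 81.3 and 88.8 CPM against 1.51, 0 and 0. Spib, a further factor of the list, did not pass (0.22 ± 0.163, adjusted p = 0.467). All 9 class II genes were higher, with a median of 3.41. Cd74 stood at 5973, 3070 and 6345 CPM against 431, 524 and 580, a change of 3.33 ± 0.185 (adjusted p = 1.28e-08). Its levels in the chosen and the matched barcodes did not overlap.

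Genes of mature naive B cells were higher. All 6 naive B cell genes were higher in barcodes with 5 or more Cd79 UMIs (median 3.96), among them Fcer2a, the chemokine receptor Ccr7 and the quiescence factors Klf2 and Bach2. Ighd stood at 201, 210 and 305 CPM against 2.26, 1.05 and 0 (7.06 ± 0.303, adjusted p = 9.02e-10). Of 9 germinal centre genes 5 could be tested and 0 passed, with a median of -0.13, beside 7.41% of all genes called higher, so that 0 of 5 is near the background and says little of the list. Bcl6, the germinal centre factor, changed by 0.26 ± 0.314 (adjusted p = 0.689) and the proliferation gene Mki67 by -0.42 ± 0.573 (adjusted p = 0.726). Mki67 rested on single libraries, passing as lower without 2-IC replicate 1 (-1.95) and as higher without 2-IC replicate 2 (2.07). Per matrix UMI, Bcl6 and Fas passed as higher, at 0.86 and 0.52 beside a median gene at 0.60. B cell barcodes themselves held 2.12, 5.21 and 0.428 UMIs of the germinal centre list. Barcodes with 5 or more Cd79 UMIs held 3.28, 8.71 and 2 UMIs and those with 0 held 1.08, 5.03 and 1.33, with the death receptor Fas as the most abundant in both. That the naive and germinal centre lists differ from one another was not tested.

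Immunoglobulin RNA was carried unevenly. All 10 immunoglobulin genes tested were higher, with a median of 5.77. Igkc stood at 7343, 25067 and 2635 CPM against 380, 194 and 34.1, the kappa level of 2-IC replicate 2 being far above the others. Without shared barcodes it was 2338 CPM in 2-IC replicate 2. In that library 1 of the 41 barcodes held 39.2% of its Igkc UMIs, and another held 43.8% of the UMIs of Jchain, the chain that joins secreted antibodies. Of the plasma cell list, Mzb1, an endoplasmic reticulum cochaperone, and the factor Irf4 were higher, Xbp1, the secretory factor, did not pass (0.25 ± 0.185, adjusted p = 0.466; it passed per matrix UMI at 0.85), and Prdm1, Sdc1 and Derl3 were too rare to test. Ighg1, the IgG1 heavy chain, was at 0 in 1-IC and at 12920 UMIs in the 41 barcodes of 2-IC replicate 2. Its change of 4.44 (adjusted p = 0.00147) was 1.18 (adjusted p = 0.00202) without shared barcodes, where that library had 135 UMIs in 24 barcodes.

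The stromal RNA of these barcodes was that of reticular cells. Its amount was largely set by the matching, which made the matrix UMIs of chosen and matched barcodes equal. Scaled to all RNA, 12 of 15 general reticular genes were lower (median -0.58, beside 3.73% of all genes lower; 9 of 15 without shared barcodes), among them the proteoglycan Dcn, with 5950, 5626 and 5430 CPM against 10025.5, 8070 and 7932 (-0.54 ± 0.0854, adjusted p = 0.000528). The bone- and skin-type collagen Col1a1 changed by -0.53 ± 0.107 (adjusted p = 0.0036). Counted per matrix UMI, which is near to counting per barcode, 0 of the 15 passed in either direction and their median was 0.04, while the median of all genes moved to 0.60. Dcn gave 13968, 8029 and 1958 UMIs in the chosen against 13313, 7650 and 1861 in the matched barcodes, so it differed little as a sum, as matching on other matrix genes would make it. CXCL12-producing reticular cells express Cxcl12 and Lepr, which were both lower by CPM (-0.48 ± 0.088 and -0.55 ± 0.136) and did not pass per matrix UMI. The MedRC genes Inmt, Cyp2f2 and Stc1 were lower, Stc1 also per matrix UMI; matched on total UMIs none of the 3 passed (0.31, 0.16 and -0.083), and without shared barcodes only Stc1 did.

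Of 11 FDC genes, 0 were higher, beside 7.41% of all genes, and 2 lower, beside 3.73%, in barcodes with 5 or more Cd79 UMIs. Lower were the lysophospholipase Enpp2 (-0.65 ± 0.101, adjusted p = 0.00041) and the adhesion molecule Vcam1 (-0.39 ± 0.108, adjusted p = 0.0321). Neither passed per matrix UMI (-0.051 and 0.22), and Vcam1 did not pass when matched on total UMIs (-0.40, adjusted p = 0.106) or without 2-IC replicate 1 (-0.32, adjusted p = 0.159). Cxcl13 stood at 4858, 5172 and 8703 CPM against 6499, 6134 and 10451 (-0.24 ± 0.0839, adjusted p = 0.0845). Clu, a secreted chaperone high in FDCs, changed by -0.21 (adjusted p = 0.177) and the milk-fat globule protein Mfge8, which FDCs use to mark dying cells for uptake, by -0.23 (adjusted p = 0.294). Per matrix UMI, where 3850 of the 9051 genes were higher (42.5%) and 10 lower (0.11%), 5 of the 11 passed as higher, a share near that of all genes. Cxcl13, Clu and Mfge8 turned to 0.36, 0.39 and 0.38, below the 0.60 by which the median gene moved on that scale. Without shared barcodes 5 of the 11 FDC genes were lower, beside 3.94% of all genes, since Cxcl13 (-0.55, adjusted p = 0.0114), Clu (-0.37, adjusted p = 0.0142) and Mfge8 (-0.55, adjusted p = 0.00134) then passed too. Each of the 3 genes that B cells and FDCs share was higher. Cr2 stood at 110, 112 and 47.1 CPM against 75.3, 35.9 and 0 (1.23 ± 0.288, adjusted p = 0.0108), and its extra UMIs were 1.99, 1.36 and 1.19 times those of a B cell barcode (1.51 ± 0.425). In 2-IC replicate 2, 1 of the 41 barcodes held 37.5% of the Cr2 UMIs, and without the top barcode of each library the ratios were 1.42, 0.742 and 1.01. Fcgr2b stood at 48.6, 11.2 and 16.6 CPM against 9.04, 10.55 and 12.8 (1.53 ± 0.434, adjusted p = 0.0342), and its levels overlapped. Matched on total UMIs, neither Cr2 (0.41, adjusted p = 0.629) nor Fcgr2b (1.31, adjusted p = 0.0654) passed. Tnfsf11, the cytokine RANKL made by MRCs, stood at 41.7, 39.2 and 61.0 CPM against 105, 120 and 81.0 and was lower (-1.20 ± 0.207, adjusted p = 0.0011), but did not pass per matrix UMI (-0.57, adjusted p = 0.0534).

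In barcodes with exactly 1 Cd79 UMI the B cell genes lay much nearer to those with 0 than to those with 5 or more. The 30 other B cell genes summed to 5.03, 10.8 and 5.40 UMIs per barcode, against 3.91, 7.67 and 3.83 with 0 Cd79 UMIs and 80.9, 128 and 57.6 with 5 or more. At least 3 of these genes were seen in 56.2%, 80.9% and 40% of the barcodes with exactly 1, against 44.4%, 70.9% and 40.8% with 0. The sums were thus higher in all 3 libraries, and this difference was not tested. Of the 30 genes 23 were too rare to test, and of the other 7 genes 0 passed. Of all genes tested 0.544% were higher and 0.329% lower, so 0 of 7 is near the background and says little of the list. Ms4a1 had 14, 2 and 0 UMIs in 185, 47 and 5 barcodes, against 3, 0 and 0 in the matched ones, and was too rare to test. Cd74 stood at 696, 320 and 1333 CPM against 571, 166 and 2862 (0.20, adjusted p = 1). The class II genes H2-Aa (0.82 ± 0.207, adjusted p = 0.0127) and H2-Eb1 (0.90 ± 0.212, adjusted p = 0.00394) passed, as did the antibody genes Igkc (1.48 ± 0.144), Jchain (1.66 ± 0.285) and Ighg1 (1.31 ± 0.220). Against all barcodes with 0 Cd79 UMIs H2-Aa and H2-Eb1 changed by 0.24 and 0.13 and did not pass (adjusted p = 1 for both), and matched on total UMIs H2-Aa passed (0.86, adjusted p = 0.00461) and H2-Eb1 did not (0.64, adjusted p = 0.102). In 2-IC replicate 1, 1 of the 185 barcodes held 55.2% of the Igkc UMIs, 87.2% of the Ighg1 and 58.4% of the Jchain UMIs; without the top barcode Igkc came to 3.06 UMIs per barcode. Matrix-bearing barcodes with 0 Cd79 UMIs had 3.005 Igkc UMIs per barcode in that library, also without their top barcode. In 2-IC replicate 2 the corresponding values were 2.61 and 2.77. Ighg1 turned to -0.45 without 2-IC replicate 1. Most of the Igkc and Jchain UMIs of this range in both 2-IC libraries thus lay in 1 barcode of each library.

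Several FDC genes were higher by edgeR in barcodes with exactly 1 Cd79 UMI. Of 11 FDC genes 5 were higher beside 0.544% of all genes tested, and 0 were lower. Cxcl13 stood at 11552, 6944 and 17587 CPM against 5694, 3879 and 7040 (1.03 ± 0.104), Clu changed by 0.88 ± 0.107, Mfge8 by 1.06 ± 0.11, the prion protein gene Prnp by 0.87 ± 0.165 and the addressin Madcam1, made by FDCs and MRCs, by 1.59 ± 0.297. Madcam1 stood at 84.0, 40.9 and 103 CPM against 33.5, 6.74 and 0, and the chosen sums were above the matched one in each library. Coch and Sox9, also FDC genes, changed by -0.04 and 0.27, and neither passed (adjusted p = 1). The rest of the FDC list had negative changes that did not pass: Sostdc1 -0.31, Vcam1 -0.17, Tnfsf13b -0.10 and Enpp2 -0.03. Of the MRC list Bst1 passed (0.74 ± 0.166, adjusted p = 0.00231), but not against all barcodes with 0 Cd79 UMIs (0.39, adjusted p = 0.585) or matched on total UMIs (0.35, adjusted p = 0.663), and Tnfsf11 was not (0.28 ± 0.198, adjusted p = 1). Cr2 stood at 44.8, 389 and 154 CPM against 81.5, 2.69 and 0, so it was lower in 2-IC replicate 1, and changed by 1.59 ± 0.225. Fcgr2b changed by 2.64 ± 0.525 and the surface glycoprotein Cd200 by 1.86 ± 0.325. B cell barcodes carry Cd200 as well: 24.8%, 29.5% and 26.5% of them had a UMI. In matrix-bearing barcodes with 0 Cd79 UMIs it was 9.68%, 8.35% and 11.8%. Lower were Dcn, Lum, Cxcl12, Lepr, Stc1 and the metallothionein Mt2 (-1.72 ± 0.198). Of these 6, only Mt2 passed against all barcodes with 0 Cd79 UMIs. Fcer2a, the third gene shared by both cell types, had 6, 24 and 0 UMIs against 9, 2 and 0 and was too rare to test.

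These calls rest on few barcodes and on the tool. In 2-IC replicate 2 the 342 Cr2 UMIs lay in 6 of the 47 barcodes, 45.0% of them in 1, and without that library Cr2 turned to -0.60 and without 2-IC replicate 1 it was 7.00. Without shared barcodes Cr2 did not pass (1.18, adjusted p = 0.118). DESeq2 on the same sums called 0 genes (86 at an unadjusted p under 0.05, edgeR 457), and edgeR called 7 of the 69 in the same direction without 2-IC replicate 2, namely Cxcl13, Ptn, Igkc, Hamp, Mfge8, Ighg1 and Clu, and 14 without 2-IC replicate 1. Without shared barcodes 36 of the 69 were called the same way. Against all matrix-bearing barcodes with 0 Cd79 UMIs instead of matched ones, Cxcl13, Clu and Mfge8 changed by 0.38, 0.38 and 0.57 and did not pass (adjusted p = 1, 1 and 0.932). Called the same way against the matched barcodes, against all barcodes with 0 Cd79 UMIs and against barcodes matched on total UMIs were 31 higher genes, among them Fcgr2b (2.64, 2.04 and 3.19), Madcam1 (1.59, 1.47 and 1.75), Cd200 (1.86, 1.71 and 2.17) and Prnp (0.87, 0.81 and 1.12). Mt2 was 1 of the 3 called lower against all of them (-1.72, -1.38 and -1.67), but DESeq2 gave -0.47 (unadjusted p = 0.759) and edgeR -0.39 (adjusted p = 1) without 2-IC replicate 2. Per barcode Mt2 held 0.595, 0.851 and 0.800 UMIs with exactly 1 Cd79 UMI against 0.850, 4.53 and 0.314 with 0, so it was higher in 1-IC. In 2-IC replicate 2 and in 1-IC these too lay in few barcodes: Fcgr2b in 3 of 47 and 1 of 5, Madcam1 in 4 of 47 and 1 of 5, and Cd200 in 11 of 47, with 41.3% of its UMIs in 1 of them, and 1 of 5. Prnp had a UMI in 67.6%, 91.5% and 80.0% of the barcodes with exactly 1 Cd79 UMI and in 58.8%, 79.7% and 53.5% of those with 0, and in 2-IC replicate 2 1 barcode held 31.0% of its 332 UMIs.

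**Figure D4:**
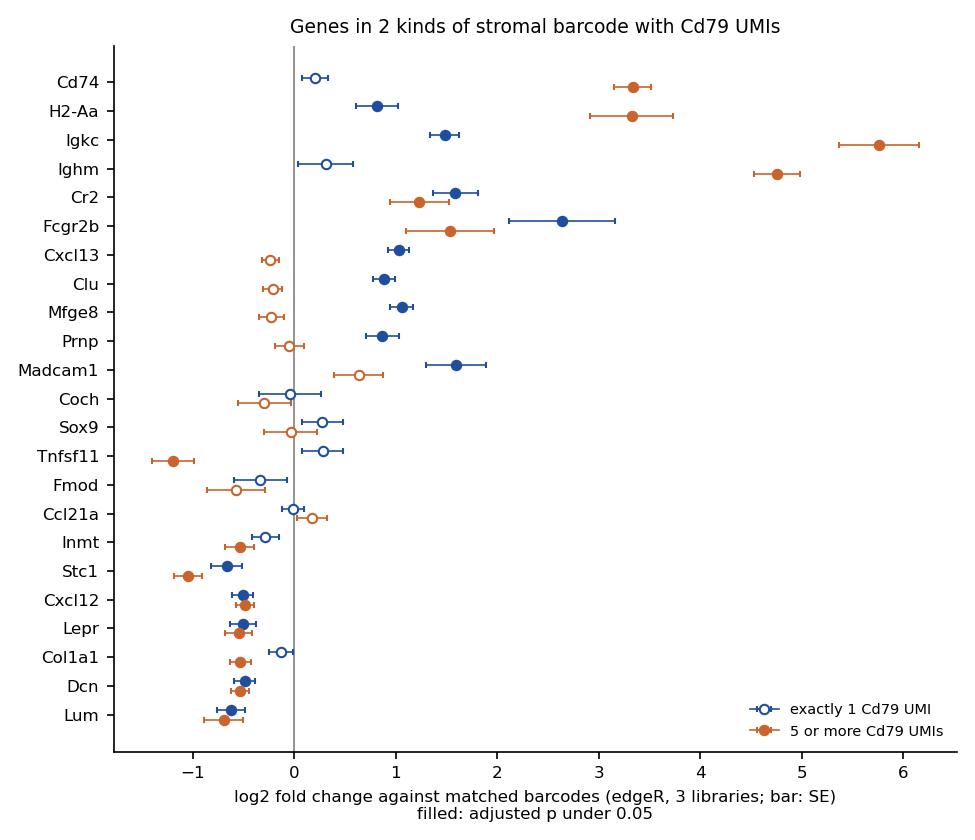
Log2 fold changes (horizontal) of named genes against matched barcodes, for barcodes with exactly 1 Cd79 UMI and with 5 or more, from edgeR over 3 libraries. Bars are the SE and filled points have an adjusted p under 0.05. B cell and class II genes lie far to the right for 5 or more Cd79 UMIs (Igkc 5.76, Cd74 3.33), while the FDC genes Cxcl13, Clu, Mfge8 and Prnp lie to the right of 0 for exactly 1. The difference between both ranges was not tested.

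Over all 536 barcodes the lists combined both patterns. Madcam1 was higher (1.47 ± 0.196, adjusted p = 0.000282), as were Cr2 (1.95 ± 0.369, adjusted p = 0.00472) and Fcgr2b (2.16 ± 0.262, adjusted p = 0.000132), while Cxcl13 (0.19 ± 0.0962, adjusted p = 0.326) and Clu (0.07) did not pass. Sostdc1 (-0.43 ± 0.113, adjusted p = 0.0359) and Enpp2 (-0.37 ± 0.0817, adjusted p = 0.0139), also of the FDC list, were lower. Thinned to 2000 UMIs, Cxcl13 passed as higher (0.36, edgeR adjusted p = 0.000971) and Madcam1 still passed (2.52). Sostdc1 (-0.12, adjusted p = 0.860), Enpp2 (-0.24, adjusted p = 0.108) and Clu (0.17, adjusted p = 0.276) then did not pass. Unthinned, 5.09% of all genes tested were higher and 2.12% lower. Of 4 TBRC genes, which include Fmod and the chemokine Ccl21a, 0 passed on either scale, and of 5 contractile genes tested 0 passed by CPM. Beside 5.09% of all genes higher and 2.12% lower by CPM, these counts by CPM are near the background and say little of the lists. Myh11 and Rgs5 passed as higher per matrix UMI, where 34.4% of all genes were higher. Outside the lists, the largest fitted rises belonged to genes with 0 UMIs in all matched barcodes, which passed the filter on low counts through the chosen barcodes alone and so describe what was chosen. They were BE692007 (203 against 0 UMIs, at least 47.9-fold higher), Gm43291 (116 against 0, at least 27.4-fold), the lymphocyte signalling genes Tespa1 (82 against 0, at least 19.4-fold) and Rasgrp1 (72 against 0, at least 17.004-fold), the kinase Pik3cg (64 against 0, at least 15.1-fold) and Ighv1-81, a heavy chain variable segment (55 against 0, at least 13.0-fold). E330020D12Rik had 80 against 0 UMIs (at least 18.9-fold). Slamf6, Tnfrsf13b and Fcrl1, receptors of lymphocytes or B cells, changed by 6.47, 6.02 and 5.99, with 1, 2 and 1 UMIs in all matched barcodes. Among called genes of no list with 1 direction in all libraries, those that fell most were A330069E16Rik (-1.91), Olfr1033 (-1.69), the cell adhesion gene Lsamp (-1.32), the aminopeptidase Enpep (-1.29), Mt2 (-1.24), Nap1l5 (-1.18), the cytokine Il6 (-1.10), the interleukin 1 receptor subunit Il1rap (-1.09), Akap7 (-1.04) and the metallothionein Mt1 (-1.02).

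Markers of other cell types were few in barcodes with 5 or more Cd79 UMIs. They were more frequent in the 45 barcodes of 2-IC replicate 1 with 2 to 4 Cd79 UMIs, with 3.22 T cell list UMIs (most of Trbc1) and 12.7 myeloid list UMIs (most of Lyz2) per barcode. Without barcodes that carried a UMI of an endothelial (Cldn5, Egfl7, Ly6c1, Lyve1), T cell (Cd3d, Trac), epithelial (Krt18), glial (S100b) or haemoglobin gene (Hba-a1, Hba-a2), used as contaminant genes in the study's methods, 312, 76 and 31 pairs gave 525 higher and 189 lower genes, and Madcam1 (1.41), Cr2 (1.74) and Fcgr2b (2.20) still passed. Myeloid genes are not among these, and their part in the results over all 536 barcodes was not tested. Of 9 T cell genes only Lck could be tested over all 536 barcodes, and it was higher (2.83 ± 0.579, adjusted p = 0.00831); in barcodes with 5 or more Cd79 UMIs the list summed to 0.383, 1.05 and 0.107 UMIs per barcode, with Cd3e at 0 in 2-IC replicate 2 and in 1-IC and Cd3d at 0 in 2-IC replicate 1. Lck was also the most abundant T cell list gene of B cell barcodes in every library. Of 8 endothelial genes Pecam1 was higher over all 536 barcodes (3.10 ± 0.380, adjusted p = 0.000141), beside 5.09% of all genes. Pecam1 made up 94.6%, 97.5% and 97.3% of the endothelial list UMIs of B cell barcodes, and Cldn5 and Kdr were at 0 in barcodes with 5 or more Cd79 UMIs in all libraries. Myeloid genes summed to 2.31, 3.05 and 1.82 UMIs per barcode with 5 or more Cd79 UMIs, against 1.87, 1.56 and 2.28 with 0, with Fcer1g or Aif1 as the most abundant. Of 5 myeloid genes tested, only Lyz2 passed, and it was lower (-1.89 ± 0.299, adjusted p = 0.000495), beside 3.73% of all genes lower and 7.41% higher. In barcodes with exactly 1 Cd79 UMI Lyz2 was higher (1.01 ± 0.258, adjusted p = 0.0141), with 143, 18.2 and 0 CPM against 46.3, 31.0 and 0, hence in 2-IC replicate 1 only. It turned to -0.33 (adjusted p = 0.962) when matched on total UMIs, was 0.31 (adjusted p = 1) against all barcodes with 0 Cd79 UMIs, and was 0.44 (unadjusted p = 0.526) by DESeq2. No erythroid or epithelial gene was frequent enough to test. Of 8 early response genes 0 passed in any of the 3 comparisons by CPM. Of all genes 7.21% (all chosen), 0.873% (exactly 1) and 11.1% (5 or more) passed, so 0 of 8 is near the background. Per matrix UMI 7 of 8 passed as higher with 5 or more Cd79 UMIs, beside 42.5% of all genes, at a median of 0.46 beside 0.60 for all genes. Of 6 interferon-induced genes Ifit3 and Cxcl9 were higher in that range by CPM, beside 7.41% of all genes. Cxcl9, a chemokine for T cells, changed by 1.85 ± 0.147 but turned to -0.42 when barcodes were matched on total UMIs. In this range 1 barcode held 36.7%, 48.4% and 40.0% of the Cxcl9 UMIs of its library.

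The share of barcodes with a UMI of a stromal type marker was set beside these levels. Cr2, which 27.7%, 65.3% and 30.1% of B cell barcodes carried as well, was detected in 25%, 35.4% and 42.9% of the chosen barcodes and in 5.69%, 6.25% and 2.86% of the matched ones. Madcam1 was detected in 8.91%, 8.33% and 11.4% against 2.97%, 4.17% and 5.71%, and Coch in 9.65%, 11.5% and 11.4% against 5.20%, 4.17% and 5.71%. All 3 shares were higher in every library (exact sign-flip permutation p = 0.25, the smallest possible). As means over the 3 libraries, Tnfsf11 (40.8% against 36.7%) and Ccl21a (70.2% against 58.8%) were also higher in 3 of 3 libraries, Ch25h (18.4% against 11.8%) and Cxcl13 (97.1% against 95.3%) in 2 of 3, and Fmod (25.5% against 24.7%) and Inmt (62.4% against 63.0%) in 1 of 3. Since the chosen barcodes were deeper, these shares were repeated after thinning to 2000 UMIs, which gave means of Cr2 7.84% against 1.72%, Madcam1 7.38% against 0.777% and Coch 2.69% against 1.47%. At equal depth Tnfsf11 turned to 12.2% against 13.2%, and Inmt was 35.5% against 44.7%, lower in 3 of 3 libraries.

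Read the other way, the share with Cd79 UMIs was set beside the stromal gene that a barcode carried. Barcodes with at least 2 Cr2 UMIs carried Cd79 UMIs in 62.7% of 75, 65.6% of 32 and 33.3% of 12, but Cr2 is itself a B cell gene. With at least 2 Madcam1 UMIs, a gene that B cell barcodes hardly hold (0.031, 0.095 and 0.036 UMIs per barcode), it was 42.6% of 61 (30.0 to 55.9%), 33.3% of 21 (14.6 to 57.0%) and 21.1% of 19 (6.05 to 45.6%). Only in 2-IC replicate 1 did that interval lie above the one for all matrix-bearing barcodes. Without any Cr2 UMI, the Madcam1 barcodes carried Cd79 UMIs in 23.1% of 26 (8.97 to 43.6%), 25% of 12 (5.49 to 57.2%) and 20% of 10 (2.52 to 55.6%), beside 23.0%, 19.6% and 12.5% of all, and 5 or more in 0%, 8.33% and 20%. With at least 1 Coch UMI it was 35.5%, 32.4% and 19.0%, and with at least 2 Tnfsf11 UMIs 21.2%, 20.4% and 8.51%. These barcodes were deeper, with a median of 12261 UMIs for Madcam1 in 2-IC replicate 1 against 6694 for all. Thinned to 2000 UMIs, the shares were 38.7%, 53.1% and 25% for Cr2, 18.2%, 14.7% and 15% for Coch, 18.0%, 14.3% and 15.8% for Madcam1 (3.85%, 0% and 20% of those without Cr2) and 9.89%, 5.44% and 2.13% for Tnfsf11, against 13.7%, 7.38% and 9.42% for all. Unthinned, exactly 1 Cd79 UMI was seen in 21.3%, 14.3% and 5.26% of the Madcam1 barcodes, and 5 or more in 14.8%, 14.3% and 15.8%. These gates hold 12 to 110 barcodes for Cr2, Madcam1 and Coch, the groups share barcodes, and their differences were not tested.

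**Figure D5:**
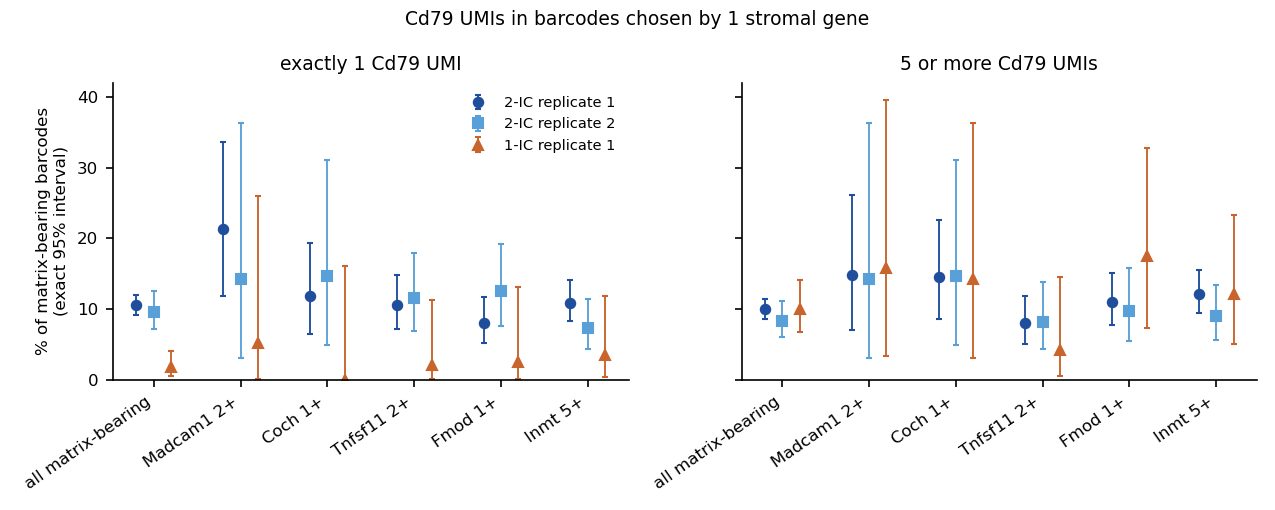
Percent of matrix-bearing barcodes (vertical) with exactly 1 Cd79 UMI (left) and with 5 or more (right), among all of them and among those with the given UMIs of 1 stromal gene (horizontal). Points are libraries and bars exact 95% intervals for counting error. With 5 or more Cd79 UMIs the intervals of the genes drawn overlap those of all matrix-bearing barcodes. Barcodes chosen by Cr2 are not drawn. In the 2-IC libraries 41.3% and 53.1% of them had 5 or more Cd79 UMIs, above all matrix-bearing barcodes (9.95% and 8.35%).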

How the data were processed

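Reads of 3 libraries made with the 10x Chromium 3' kit were aligned and counted by the authors with Cell Ranger (5.0.0 in the file headers) on GRCm38 with Ensembl annotation, and the deposited values are raw UMI counts per gene and barcode, for 51912 features, of barcodes that Cell Ranger kept as cells. Free RNA was not removed. No contaminant filter was applied here, unlike in the study, which left out barcodes with Cd79a or Cd79b. Counts were read with Python 3.11.15 (numpy 2.4.6, pandas 2.3.3, scipy 1.17.1), doublets were scored per library with Scrublet in scanpy 1.11.5 (not removed), and figures were drawn with matplotlib 3.10.9. Each chosen barcode was paired within its library with the unused barcode of 0 Cd79 UMIs nearest in matrix UMIs, within 10% or 1 UMI. Summed counts were tested with edgeR 4.0.16 in R 4.3.3 (filterByExpr, TMM, library as block, since chosen and matched barcodes of a library share a suspension), and DESeq2 1.42.0 was an alternative. Counts summed over rows with the same symbol were used for lists. The test was tested on simulated data for the comparison of all chosen barcodes (11016 genes). With 200 genes changed by a log2 of 2 it called 197, of which 190 were changed. With a log2 of 1 it called 122, of which 116 were changed, and with none changed it called 0. The simulated sums used the trend of spread that edgeR had fitted, so single barcodes with most UMIs of a gene were not modelled. The comparisons for exactly 1 and for 5 or more Cd79 UMIs were not simulated.

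The chosen barcodes and gene lists were set with earlier results of these data known, and the ranges of Cd79 UMIs and all tests on them were added after the data were seen. Named genes are the members of the lists by role, plus the 10 largest rises and the 10 largest falls among called genes of no list with 1 direction in all libraries; Cd200, Fabp5, Hamp and Ptn and all single-barcode shares were chosen after their values were seen. Numbers of barcodes limit the precision, and intervals (95%) and floors (3 counts) cover counting error only. The labels give both 2-IC libraries the same title text but different short tags, and the titles were followed. The alternatives were other matching, minimums, depth, scaling, tools and left-out libraries. Some genes of the lists are counted in them but not reported here by name.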

Additional observations from a re-analysis of the deposited data

Results flagged for a closer look

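An interaction term in edgeR over all 11016 genes, set for the 1-IC against the 2-IC libraries, passed for 1 gene. Cxcl10, an interferon-induced chemokine, gave a difference of 2.73 (log2, edgeR adjusted p = 0.0345), with 691 genes at an unadjusted p under 0.05. The chosen barcodes held 383, 146 and 279 CPM (both 2-IC libraries, then 1-IC), and their matched barcodes 396, 173 and 48.1 CPM. All 245 matrix-bearing barcodes of 1-IC with 0 Cd79 UMIs held 690 Cxcl10 UMIs among 1980430, a higher share than in the chosen barcodes. The rise in 1-IC was thus seen against the matched barcodes and not against all of those with 0. The 1-IC side is 1 library of 35 barcodes with no replicate, so the p rests on the spread between the 2-IC libraries and gives no test of the schedules, and in its 28 barcodes with 5 or more Cd79 UMIs 1 barcode held 47.8% of the 113 Cxcl10 UMIs. Schedule and library cannot be told apart.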

How the results depend on the processing

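Over all chosen barcodes, 561 genes were higher and 233 lower. These became 357 and 68 with DESeq2, 141 and 56 after thinning to 2000 UMIs, and 3788 and 5 per matrix UMI. The number lower was 473 without matching, 128 with 20 or more matrix UMIs, 138 without shared barcodes and 81 when matched on total UMIs. Leaving out each library in turn gave 287 to 643 higher and 61 to 276 lower. For exactly 1 Cd79 UMI (43 higher, 26 lower), DESeq2 gave 0 and 0, no matching 77 higher, leaving out shared barcodes 23 and 17, matching on total UMIs 51 lower, per matrix UMI 2 lower, and leaving out each library 6 to 57 higher and 1 to 43 lower. For 5 or more (671 higher, 338 lower), DESeq2 gave 406 and 90, no matching 1160 and 874, matching on total UMIs 181 lower, per matrix UMI 3850 and 10, and leaving out each library 416 to 788 higher and 176 to 397 lower. The cause was not tested, except that per matrix UMI the median gene moves by 0.47, 0.25 (exactly 1) and 0.60 (5 or more).

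The pairing comes from the library, whose chosen and matched barcodes share a suspension. Without this block the counts were 316 and 0 over all chosen barcodes, 4 and 0 for exactly 1 Cd79 UMI, and 347 and 9 for 5 or more.

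The share with another B cell gene (difference 4.73 percentage points) was 7.20 without matching, 8.19 with 5 or more matrix UMIs and 32.4 after thinning. The Cr2 difference (29.5 points) was 41.1 with 2 or more Cd79 UMIs and 6.11 thinned; Coch (5.82) was 7.42 without Scrublet calls and 1.22 thinned; Ccl21a (11.3) was 17.4 with 20 or more matrix UMIs and 3.36 thinned. Madcam1 (5.27) was 3.94 without matching, 3.77 with 2 or more Cd79 UMIs, 2.11 with 20 or more matrix UMIs, 6.85 without Scrublet calls and 6.61 thinned. Tnfsf11 (4.08) was 1.51 with 2 or more Cd79 UMIs and turned to -0.146 with 20 or more matrix UMIs and -1.01 thinned. Inmt (-0.547) was -3.51 without matching, 3.23 with 2 or more Cd79 UMIs, 2.44 with 20 or more matrix UMIs, -3.93 without Scrublet calls and -9.16 thinned. With 2 or more Cd79 UMIs the chosen share was 12.5% and 9.98% in the 2-IC libraries, and thinned 13.7% and 7.38%. Over the remaining settings 132 values stayed within the spread or within 1.5 times.

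Among named genes, calls gained or lost with a turn in sign were Cxcl9 matched on total UMIs (-0.31 over all, -0.84 for exactly 1, -0.42 for 5 or more), Enpp2 per matrix UMI (0.11), Cr2 for exactly 1 without each library in turn (-0.60 without 2-IC replicate 2, up to 7.00), Lyz2 for exactly 1 matched on total UMIs (-0.33), Ighg1 for exactly 1 without each library in turn (-0.45 without 2-IC replicate 1, up to 2.92), and for 5 or more Mki67 without each library in turn (-1.95 to 2.07), Hamp (-0.070), Fabp5 (-0.013), Cxcl12 (0.020), Inmt (0.31) and Cyp2f2 (0.16) matched on total UMIs, and Cxcl13 (0.36), Clu (0.39), Mfge8 (0.38), Prnp (0.57), Dcn (0.065), Fas (0.52), Vcam1 (0.22), Col1a1 (0.069), Lepr (0.060), Inmt (0.068) and Cxcl12 (0.12) per matrix UMI. Depth limits rare genes: 35 and 5 barcodes of 1-IC underlie its values for all chosen barcodes and for exactly 1 Cd79 UMI.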
